A study of Homo sapiens with 12 samples.

Results

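The genes described here carry the integrated stress response and the unfolded protein response, chosen as a list of 42 named genes of which 40 had a row among the 17508 genes of the count table. They fall into the ATF4 amino acid arm (22 genes), the ATF6 and XBP1 chaperone arm (14 of 16 genes in the table) and the stress sensors (4 genes). DNAJB11, a co-chaperone of the endoplasmic reticulum (ER), and XBP1, the transcription factor made when the sensor IRE1 splices its mRNA, had no row and were not analysed here. In the integrated stress response, kinases that sense amino acid shortage, unfolded proteins, double-stranded RNA or haem loss phosphorylate the translation factor eIF2, which slows protein synthesis in general while the mRNA of the transcription factor ATF4 is translated more. ATF4 then raises genes that make, import and charge amino acids, together with regulators such as DDIT3 (CHOP) and TRIB3. In the unfolded protein response of the ER, the eIF2 kinase PERK acts beside IRE1 and ATF6, and the factors XBP1 and ATF6 raise chaperones, disulfide isomerases and the machinery that removes misfolded proteins. The comparison of the arms therefore sets amino acid genes against ER folding genes, and both lists are textbook groupings. They were nevertheless chosen with earlier results of these data known, so counts over them are descriptions.

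The libraries came from TYK-nu, an established line labelled as high grade serous ovarian adenocarcinoma, grown with 15 µM cisplatin, a platinum drug that crosslinks DNA, or with DMSO as the control. Treatment lasted 24 or 72 h, which gave 4 groups of 3 libraries (DMSO 24 h, Cisplatin 24 h, DMSO 72 h and Cisplatin 72 h). All groups were the same cell line in the same serum-containing medium, and poly(A) RNA was read with a strand-specific kit on a single sequencer lane. The study counted exonic and intronic fragments of each gene to ask whether cisplatin altered RNA splicing, and the same counts are used here for the stress response genes. Time in the study cannot be told apart from culture age, cell density or exhaustion of the medium, and in bulk RNA fewer cells that use a gene cannot be told apart from less of its RNA per cell. By the study's methods the cells of each group were grown in triplicate, and the labels do not say how far apart these cultures were set up, so p-values measure the spread between cultures of one cell line.

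Exon counts summed to between 17341818 and 63913081 per library and intron counts to between 1185012 and 4840181, or 6.26 to 7.17% of all counts. Replicates of a group differed by more than counting noise, with a chi-square per gene of 3.84 to 21.7 over the pairs. This cannot tell separate cultures from separate preparations of one RNA, and pairs across groups were not examined. Of the serous carcinoma markers, KRT18 stood at 133 to 181 CPM (exon counts scaled to a common library size), KRT8 at 11.0 to 34.5 CPM and WT1 at 1.59 to 4.19 CPM. EPCAM did not exceed 1.68 CPM, KRT7 0.303 CPM and PAX8 0.0758 CPM. FOLR1 was at 0 in all 12 libraries, so the serous list was not high as a whole. The endothelial genes PECAM1 (1350 to 2491 CPM) and CDH5 (658 to 1046 CPM) were present in all 12 libraries, VWF did not exceed 1.20 CPM, and PTPRC and LUM were at 0. The summed level of the 3 endothelial markers moved with time, from 3434 to 3474 CPM in DMSO 24 h to 2033 to 2125 CPM in DMSO 72 h, and from 3355 to 3479 CPM in Cisplatin 24 h to 2165 to 2307 CPM in Cisplatin 72 h. At 72 h the cisplatin range lay above the DMSO range. The part of this sum in the results below was not tested. Levels are given as CPM of the scaled library size (TMM) and are compared between groups for one gene, never between genes, because they are not corrected for length. A log2 change is given as the estimate ± its standard error, from 3 libraries in each group.

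An exon entry was present for 39 genes and an intron entry for 39 genes, with 37, 36 and 34 genes kept for the tests of exon counts, intron counts and their ratio. DDIT3 had no exon entry and CEBPB no intron entry. CHAC1, a glutathione-degrading enzyme, was listed at 0 exon counts in all 12 libraries although its intron entry held 209 to 1308 counts, and what its intron annotation covers is not given in the sources used here. ATF3, a stress-induced transcription factor, had 0 to 16 exon counts per library, too few to test. Named pseudogene copies exist for 7 of the genes (ATF4, ASNS, PSAT1, PSPH, MTHFD2, SLC7A5 and HSPA5). Of the 40, 21 overlap another gene and 18 overlap one on the opposite strand, such as DDIT3 with MARS1. Overlaps on the same strand also occur, such as SYVN1 with FAU. Their counts are uncertain to the extent that copies or overlaps shared fragments.

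Promoter sequences show what the 2 arms hold near their start sites apart from their counts. RefSeq (GRCh38.p14) gave a promoter, 250 bases before to 50 bases after the start, for 39 of the 42 listed genes (NUPR1, PSPH and SHMT2 had no entry) and for 27305 genes in all. A gene counted as holding an element when any of its promoter entries did. The C/EBP-ATF response element (CARE, searched as TGATGNAA on both strands) is the element that ATF4 binds with a C/EBP partner. It was in 6 of 19 genes of the ATF4 arm (31.6%), 1 of 16 of the chaperone arm (6.25%) and 4.46% of all genes with an entry. The ER stress response element (ERSE) was searched as CCAAT, 9 bases of any kind and CCACG on both strands. It was in 0 of 19 genes of the ATF4 arm, 6 of 16 of the chaperone arm (37.5%) and 0.0916% of all. Its short form ERSE-II, searched as ATTGG, 1 base of any kind and CCACG, was in 0 of 19, 2 of 16 (12.5%) and 0.0696%. The cyclic AMP response element TGACGTCA was in 1 of 19 ATF4-arm genes (PPP1R15A), 0 of 16 chaperone-arm genes and 2.25% of all. TGACGTGG, the core of the unfolded protein response element, was in none of the 39 and in 0.927% of all. A match describes letters in this window and is not evidence of binding.

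The promoters of 2 ATF4-arm genes with a CARE, of HERPUD1 with both a CARE and an ERSE-II, and of 4 chaperones with an ERSE or ERSE-II are printed because they hold the elements by which the arms differ. Each line gives the 250 bases before the RefSeq start, 5′ to 3′ on the strand of the gene, with the matched elements in capitals. They lie at chr7:97872409-97872658 (minus strand) for ASNS, chr19:33373863-33374112 (plus) for CEBPG, chr16:56931892-56932141 (plus) for HERPUD1, chr9:125241344-125241593 (minus) for HSPA5, chr19:12938359-12938608 (plus) for CALR, chr12:103930160-103930409 (plus) for HSP90B1 and chr22:21642052-21642301 (plus) for SDF2L1. The RefSeq start can differ from the end of the gene interval given with each gene, so the windows of CEBPG and HSP90B1 lie inside that interval and those of ASNS, HSPA5 and CALR overlap it.
ASNS: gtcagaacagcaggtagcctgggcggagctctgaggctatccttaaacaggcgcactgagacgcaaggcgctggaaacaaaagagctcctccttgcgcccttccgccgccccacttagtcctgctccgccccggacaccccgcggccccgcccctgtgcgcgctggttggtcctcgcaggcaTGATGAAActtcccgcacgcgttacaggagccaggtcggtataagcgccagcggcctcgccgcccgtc
CEBPG: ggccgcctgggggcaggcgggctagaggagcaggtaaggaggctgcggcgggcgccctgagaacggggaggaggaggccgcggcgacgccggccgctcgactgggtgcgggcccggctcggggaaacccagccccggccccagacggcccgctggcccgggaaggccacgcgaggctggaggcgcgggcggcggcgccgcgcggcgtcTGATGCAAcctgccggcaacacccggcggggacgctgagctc
HERPUD1: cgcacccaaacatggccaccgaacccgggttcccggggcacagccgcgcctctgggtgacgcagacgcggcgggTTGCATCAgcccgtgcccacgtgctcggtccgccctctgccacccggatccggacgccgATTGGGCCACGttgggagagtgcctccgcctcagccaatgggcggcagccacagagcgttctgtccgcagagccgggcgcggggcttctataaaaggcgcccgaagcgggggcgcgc
HSPA5: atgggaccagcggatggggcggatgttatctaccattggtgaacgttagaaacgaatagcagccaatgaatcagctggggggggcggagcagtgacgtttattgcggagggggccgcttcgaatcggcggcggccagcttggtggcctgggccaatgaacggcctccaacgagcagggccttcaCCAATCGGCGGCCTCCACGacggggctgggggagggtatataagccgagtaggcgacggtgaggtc
CALR: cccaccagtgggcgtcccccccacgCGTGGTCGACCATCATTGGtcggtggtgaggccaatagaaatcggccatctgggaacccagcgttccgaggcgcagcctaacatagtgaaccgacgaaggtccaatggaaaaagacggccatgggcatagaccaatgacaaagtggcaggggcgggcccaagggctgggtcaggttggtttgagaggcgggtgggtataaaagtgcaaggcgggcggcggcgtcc
HSP90B1: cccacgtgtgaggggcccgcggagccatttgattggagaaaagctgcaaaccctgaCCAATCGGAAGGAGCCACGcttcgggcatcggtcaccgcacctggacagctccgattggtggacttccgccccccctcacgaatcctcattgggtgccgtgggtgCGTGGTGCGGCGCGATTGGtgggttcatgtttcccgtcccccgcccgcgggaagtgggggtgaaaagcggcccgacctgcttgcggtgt
SDF2L1: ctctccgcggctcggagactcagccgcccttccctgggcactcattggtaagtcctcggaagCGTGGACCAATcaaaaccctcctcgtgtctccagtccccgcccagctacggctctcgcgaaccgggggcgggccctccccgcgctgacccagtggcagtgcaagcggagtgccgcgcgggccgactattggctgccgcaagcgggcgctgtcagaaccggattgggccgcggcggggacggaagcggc
The CARE began 68 bases before the start in ASNS and 42 bases before it in CEBPG. HERPUD1 held a CARE 176 bases and an ERSE-II 117 bases before its start, the only listed gene whose window matched elements of both kinds. The ERSE of HSPA5 began 66 bases and that of CALR 225 bases before the start, HSP90B1 had an ERSE at 194 and another at 89 bases, and SDF2L1 an ERSE-II at 188 bases. The other matches were a CARE in ATF3, CHAC1, SLC3A2 and SLC7A1 and an ERSE in CRELD2, PDIA6 and XBP1.

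The ATF4 arm rose between 24 and 72 h and most of the chaperone arm fell, in DMSO and in cisplatin alike. In DMSO, 14 of the 19 tested ATF4-arm genes were higher at 72 h and 3 were lower (edgeR quasi-likelihood test, Benjamini-Hochberg adjusted p under 0.05 over all 10444 genes tested), while of 14 chaperone-arm genes 4 were higher and 9 lower. Over all genes tested, 32.6% were higher and 32.5% lower. In cisplatin, 14 ATF4-arm genes were higher and the other 5 did not pass, and 4 chaperone-arm genes were higher and 8 lower, beside 32.0% of all genes higher and 31.5% lower. Of the 37 genes together, 6 were at least 2-fold higher in DMSO and 5 in cisplatin, all in the ATF4 arm, where 6.02% and 5.22% of all genes were.

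**Figure D1:**
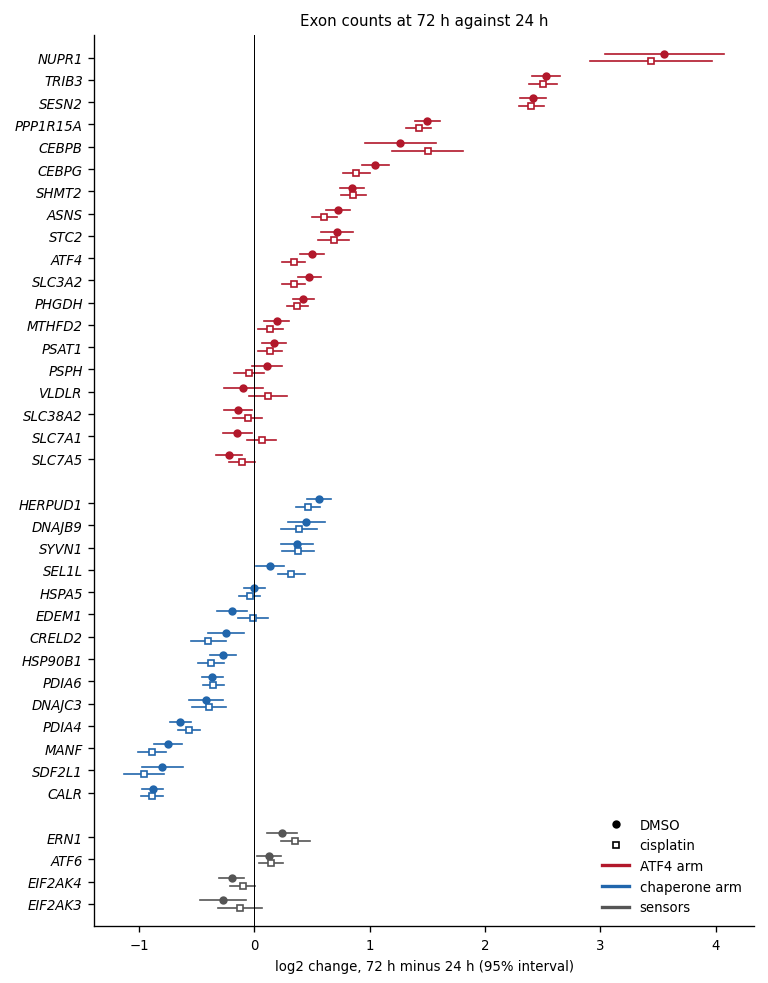
Log2 change of exon counts from 24 to 72 h (x axis, with 95% intervals) for the 37 tested genes (y axis), grouped by arm and coloured red for the ATF4 arm, blue for the chaperone arm and grey for the sensors. Filled circles are DMSO and open squares cisplatin, and within the ATF4 arm the values run from 3.55 for NUPR1 to -0.22 for SLC7A5 in DMSO.

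All 6 tested transcription factors and other regulators of the ATF4 arm rose at both treatments. ATF4 itself (chr22:39519695-39522683 in GRCh38), the factor that gives the arm its name, had 731, 761 and 703 exon CPM in the DMSO 24 h libraries and 1023, 1069.5 and 1013 in DMSO 72 h. With cisplatin it had 749, 757 and 777 CPM at 24 h and 916, 1024 and 951 at 72 h. The 24 h and 72 h libraries did not overlap at either treatment, with a log2 change of 0.50 ± 0.049 in DMSO (edgeR adjusted p = 4.26e-09) and 0.34 ± 0.049 in cisplatin (edgeR adjusted p = 1.97e-06). ATF4 is controlled largely by translation, which these counts do not measure.

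TRIB3 (chr20:362835-397559), a pseudokinase that is a target of ATF4 and CHOP and restrains both, had 146, 142 and 124 CPM in DMSO 24 h and 812, 784 and 786 CPM in DMSO 72 h. The cisplatin libraries held 129, 138 and 132 CPM at 24 h and 723, 786 and 756 CPM at 72 h. Every 72 h library was therefore far above every 24 h library, with a rise of 5.78-fold in DMSO (log2 2.53 ± 0.058, edgeR adjusted p = 2.44e-20) and 5.67-fold in cisplatin (log2 2.50 ± 0.058, edgeR adjusted p = 3.67e-20). NUPR1 (chr16:28532708-28539008), a small stress-induced chromatin protein, had 0.422, 0.942 and 0.485 CPM in DMSO 24 h and 7.53, 7.02 and 7.96 CPM in DMSO 72 h. In cisplatin its level was 0.656, 0.323 and 0.934 CPM at 24 h and 5.23, 6.99 and 6.604 CPM at 72 h. NUPR1 rose the most on the log2 scale, by 3.55 ± 0.25 in DMSO and 3.44 ± 0.26 in cisplatin, but its standard error was several times that of TRIB3, and its 24 h counts were low (edgeR adjusted p = 1.27e-11 and 4.01e-11).

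PPP1R15A (chr19:48872212-48876059) encodes GADD34, the subunit that brings a phosphatase to eIF2 and so ends the response. It had 67.2, 66.5 and 67.7 CPM in DMSO 24 h and 193, 191 and 186 CPM in DMSO 72 h, against 64.96, 69.2 and 66.8 and 179.7, 184 and 176 CPM in the cisplatin libraries. The rise was 2.83-fold in DMSO (log2 1.50 ± 0.051, edgeR adjusted p = 3.35e-17) and 2.68-fold in cisplatin (log2 1.42 ± 0.051). CEBPG (chr19:33373685-33382686), a partner with which ATF4 pairs on DNA and whose promoter with its CARE is printed above, had 76.4, 84.7 and 89.02 CPM in DMSO 24 h and 176, 173 and 167 CPM in DMSO 72 h. In cisplatin CEBPG had 91.8, 84.4 and 89.5 CPM and then 167, 162 and 162 CPM, again without overlap, and the log2 rise was 1.05 ± 0.058 and 0.88 ± 0.057. CEBPB (chr20:50190830-50192668), a related factor, had CPM of 62.1, 49.9 and 55.3 in DMSO 24 h, 129, 113 and 159 in DMSO 72 h, 62.7, 45.95 and 50.96 in Cisplatin 24 h and 106, 189 and 156 in Cisplatin 72 h. The groups did not overlap between the times, with log2 1.26 ± 0.15 in DMSO and 1.50 ± 0.15 in cisplatin (edgeR adjusted p = 7.81e-08 and 5.59e-09).

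**Figure D2:**
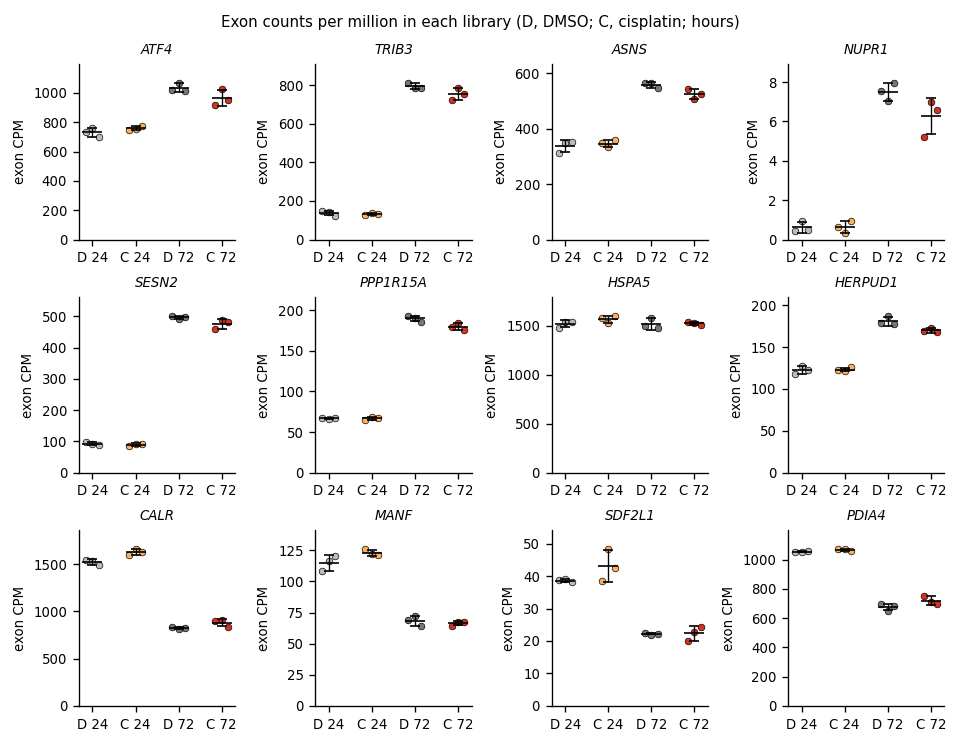
Exon CPM (y axis, linear and starting at 0) of 12 genes in each of the 12 libraries, by treatment and hours (x axis), with the mean and SD of the 3 libraries of a group. The 72 h libraries lie above the 24 h libraries for the ATF4-arm genes and HERPUD1 and below them for CALR, MANF, SDF2L1 and PDIA4, and HSPA5 lies between 1474 and 1598 CPM in every group.

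The enzymes for making amino acids and one-carbon units rose in 5 of 6 cases at each treatment, with a median log2 change over the 6 of 0.31 in DMSO and 0.26 in cisplatin, against 1.38 and 1.46 over the regulators. ASNS (chr7:97851677-97872542), asparagine synthetase and a classic ATF4 target, had 312, 348 and 351 CPM in DMSO 24 h and 563, 565 and 545 CPM in DMSO 72 h. With cisplatin the libraries had 346, 333 and 357 CPM at 24 h and 544, 508 and 525 CPM at 72 h. The times did not overlap, and ASNS was 1.65-fold higher at 72 h in DMSO (log2 0.73 ± 0.052, edgeR adjusted p = 1.50e-11) and 1.52-fold higher in cisplatin (log2 0.61 ± 0.051, edgeR adjusted p = 3.87e-10). SHMT2 (chr12:57229573-57234935), the mitochondrial enzyme that turns serine into glycine, had the largest rise of these enzymes. It went from 223, 218 and 198 CPM in DMSO 24 h to 388, 379.7 and 382 CPM in DMSO 72 h, and from 200.4, 218 and 212 to 377, 391 and 372 CPM in cisplatin, with log2 0.85 ± 0.052 and 0.86 ± 0.052 (edgeR adjusted p = 1.03e-12 and 1.02e-12).

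Along its 3 steps the serine pathway had its largest rise at the first, and the genes were not tested against each other. PHGDH, its first enzyme, rose by log2 0.43 ± 0.045 in DMSO and 0.37 ± 0.044 in cisplatin, and PSAT1, the second, by 0.17 ± 0.050 and 0.13 ± 0.049. PSPH, the last enzyme of the pathway, did not pass the test, at 0.11 ± 0.064 in DMSO and -0.043 ± 0.063 in cisplatin (edgeR adjusted p = 0.136 and 0.562). MTHFD2, a mitochondrial folate enzyme, rose by 0.19 ± 0.051 and 0.14 ± 0.051. The small rises of PSAT1 and MTHFD2 in cisplatin were each lost by edgeR when 1 library was left out, PSAT1 without Cisplatin 24 h replicate 1 and both without Cisplatin 72 h replicate 1, and MTHFD2 also without Cisplatin 24 h replicate 2.

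The amino acid transporters of the ATF4 arm did not rise together. SLC3A2, the heavy chain that carries several transporters to the cell surface, had 281, 265 and 265 CPM in DMSO 24 h and 375, 386 and 368 CPM in DMSO 72 h, and rose by log2 0.48 ± 0.048 in DMSO and 0.34 ± 0.048 in cisplatin. Its light chain SLC7A5, which carries large neutral amino acids, fell in DMSO from 778, 725 and 713 CPM to 654, 594 and 659 CPM, at log2 -0.22 ± 0.054 (edgeR adjusted p = 0.00126). So did SLC7A1, a carrier of cationic amino acids, at -0.15 ± 0.060, and SLC38A2, a carrier of small neutral ones, at -0.14 ± 0.060. In cisplatin these 3 carriers did not pass the test, at -0.11 ± 0.054, 0.062 ± 0.060 and -0.058 ± 0.060. The test of the difference between treatments in the change over time was not passed by any of the 3, so the carriers are not shown to behave differently under the drug (edgeR adjusted p of the interaction = 0.643, 0.496 and 0.754). The libraries of SLC7A1 overlapped between the times in DMSO, and its call and that of SLC38A2 were lost when counts were scaled by library totals only.

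Of the remaining ATF4-arm genes, SESN2 (chr1:28259518-28282491), a leucine-binding inhibitor of mTORC1, moved like TRIB3. It had 97.8, 93.3 and 88.4 CPM in DMSO 24 h and 501, 491 and 499 CPM in DMSO 72 h, against 85.5, 93.2 and 91.4 and 458, 487 and 482 CPM in the cisplatin libraries. That was 5.33-fold in DMSO (log2 2.41 ± 0.053, edgeR adjusted p = 2.44e-20) and 5.28-fold in cisplatin (log2 2.40 ± 0.054, edgeR adjusted p = 3.13e-20). STC2, a secreted glycoprotein, rose by log2 0.72 ± 0.067 and 0.69 ± 0.066. VLDLR, a lipoprotein receptor, did not pass the test, at -0.096 ± 0.081 in DMSO and 0.12 ± 0.080 in cisplatin.

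Chaperones and co-chaperones of the ER fell in 6 of 8 cases at each treatment, and HSPA5 was among those that did not. HSPA5 (chr9:125234853-125241382), or BiP, the main Hsp70 chaperone of the ER and the usual readout of the unfolded protein response, had 1479, 1536 and 1541 CPM in DMSO 24 h and 1492, 1582 and 1474 CPM in DMSO 72 h. The cisplatin libraries held 1575, 1528 and 1598 CPM at 24 h and 1537, 1529.6 and 1506 CPM at 72 h. The times overlapped at both treatments, and the log2 change was -0.0027 ± 0.044 with a 95% interval of -0.094 to 0.088 in DMSO and -0.040 ± 0.044 with an interval of -0.13 to 0.051 in cisplatin (edgeR adjusted p = 0.962 and 0.444).

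CALR (chr19:12938578-12944489), calreticulin, a lectin chaperone and calcium store, had 1541, 1536 and 1489 CPM in DMSO 24 h and 839, 817 and 823 CPM in DMSO 72 h. In cisplatin it had 1592, 1657 and 1627 CPM at 24 h and 896, 903 and 838 CPM at 72 h. No library of one time reached the range of the other, and the 72 h level was 54.3% of the 24 h level in DMSO (log2 -0.88 ± 0.045, edgeR adjusted p = 3.26e-14) and 54.1% in cisplatin (log2 -0.89 ± 0.045, edgeR adjusted p = 3.44e-14). SDF2L1 (chr22:21642302-21644299), a partner of BiP and its co-chaperones, had 38.6, 39.01 and 38.1 CPM in DMSO 24 h, 22.4, 21.99 and 22.3 in DMSO 72 h, 38.4, 48.3 and 42.6 in Cisplatin 24 h and 19.9, 22.7 and 24.4 in Cisplatin 72 h. It fell to 57.6% in DMSO (log2 -0.80 ± 0.084) and 51.6% in cisplatin (log2 -0.96 ± 0.082), without overlap. MANF (chr3:51385291-51389397), a secreted ER stress factor that stabilises BiP with its clients, had 108, 116 and 120.3 CPM in DMSO 24 h and 69.01, 71.97 and 64.1 CPM in DMSO 72 h, and 126, 122 and 121 and 64.3, 67.4 and 67.5 CPM in cisplatin. Its log2 change was -0.75 ± 0.059 in DMSO and -0.89 ± 0.058 in cisplatin (edgeR adjusted p = 8.53e-11 and 3.97e-12).

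HSP90B1, the Hsp90 of the ER and the gene with a pair of ERSE matches above, fell by less, with log2 -0.27 ± 0.054 in DMSO and -0.38 ± 0.054 in cisplatin. DNAJC3, a BiP co-chaperone that also inhibits eIF2 kinases, changed by -0.42 ± 0.073 and -0.39 ± 0.072, and CRELD2, a secreted isomerase, by -0.24 ± 0.076 and -0.40 ± 0.074. DNAJB9, a BiP co-chaperone and known XBP1 target, was the exception that rose, by 0.45 ± 0.076 in DMSO and 0.39 ± 0.076 in cisplatin (edgeR adjusted p = 1.59e-05 and 9.97e-05). Both disulfide isomerases tested, PDIA4 and PDIA6, fell. PDIA4 had 1052, 1051 and 1060.3 CPM in DMSO 24 h and 696, 650.3 and 684 CPM in DMSO 72 h, a log2 change of -0.64 ± 0.045, and changed by -0.57 ± 0.045 in cisplatin. PDIA6 changed by -0.36 ± 0.044 and -0.35 ± 0.044.

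Of the genes of ER-associated degradation, 3 of 4 were higher at 72 h at each treatment. HERPUD1 (chr16:56932142-56944864), a membrane scaffold of the degradation complex whose promoter held both a CARE and an ERSE-II, had 118, 127 and 122 CPM in DMSO 24 h and 178, 187 and 177 CPM in DMSO 72 h. With cisplatin HERPUD1 stood at 122, 121 and 126 CPM and then at 169, 173 and 168 CPM. The times did not overlap, and the log2 rise was 0.56 ± 0.050 in DMSO and 0.46 ± 0.050 in cisplatin (edgeR adjusted p = 7.51e-10 and 2.15e-08). SYVN1 (HRD1), the ubiquitin ligase of that complex, rose by 0.37 ± 0.067 and 0.38 ± 0.066, and SEL1L, its adaptor, by 0.13 ± 0.058 and 0.32 ± 0.057. EDEM1, a mannosidase-like protein that hands misfolded glycoproteins to the complex, fell in DMSO at log2 -0.19 ± 0.064 and was at -0.015 ± 0.063 in cisplatin, where it did not pass the test. The interaction was not called for SEL1L or EDEM1 (edgeR adjusted p = 0.504 and 0.54). The DMSO libraries of EDEM1 overlapped between the times, and the call of SEL1L in DMSO was lost without the filter on low counts.

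The 4 sensors changed little. ERN1, which encodes the kinase and RNase IRE1, rose by log2 0.24 ± 0.063 in DMSO and 0.36 ± 0.063 in cisplatin, and ATF6, the membrane-bound factor, by 0.13 ± 0.052 and 0.14 ± 0.051. EIF2AK3, which encodes PERK, fell at log2 -0.27 ± 0.096 in DMSO and was at -0.12 ± 0.093 in cisplatin, where it was not called. EIF2AK4, which encodes the amino acid sensor GCN2, fell at log2 -0.20 ± 0.052 in DMSO and was at -0.10 ± 0.051, not called, in cisplatin. For neither kinase was the interaction called (edgeR adjusted p = 0.722 and 0.673). The mRNA level of a sensor does not measure its activation, which takes place on the protein.

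Leaving out 1 library at a time cost the DMSO comparison at most 5 of its 34 calls, namely SEL1L, ATF6, EDEM1, SLC38A2 and SLC7A1 without DMSO 72 h replicate 2. CRELD2 also lost its DMSO call without DMSO 24 h replicate 1 or DMSO 72 h replicate 3, and EIF2AK3 without DMSO 24 h replicate 3. SEL1L and ATF6 were also lost without DMSO 24 h replicate 1 or DMSO 24 h replicate 2, EDEM1, SLC38A2 and SLC7A1 without DMSO 24 h replicate 3, and SLC7A1 without DMSO 24 h replicate 1. Without DMSO 72 h replicate 1 SEL1L, ATF6 and SLC7A1 were lost, and without DMSO 72 h replicate 3 SEL1L and SLC38A2. SEL1L depended as well on Cisplatin 24 h replicate 3, Cisplatin 72 h replicate 1 and Cisplatin 72 h replicate 3, which are not among the libraries compared, and SLC38A2 on the first of these. In cisplatin at most 3 of 28 calls were lost, PSAT1, MTHFD2 and ATF6 without Cisplatin 72 h replicate 1. ATF6 was also lost without Cisplatin 24 h replicate 2 or Cisplatin 24 h replicate 3. The counts stayed at 18 to 20 genes higher and 10 to 14 lower in DMSO, and at 17 to 20 higher and 8 to 9 lower in cisplatin.

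As whole lists, the median log2 change over time was 0.50 (SD 0.042 over the 3 libraries of 72 h) in the ATF4 arm and -0.26 (SD 0.032) in the chaperone arm in DMSO, beside 0.015 over all genes tested. In cisplatin the medians were 0.37 (SD 0.040) and -0.37 (SD 0.044), beside 0.017. Measured against the DMSO 24 h mean, the ATF4-arm median lay between 0.47 and 0.55 in the DMSO 72 h libraries and between 0.39 and 0.49 in the Cisplatin 72 h libraries, and in the 24 h libraries between -0.025 and 0.021. The chaperone-arm median lay between -0.31 and -0.22 in the 6 libraries of 72 h and between -0.038 and 0.061 in the 6 of 24 h. In each arm the libraries of 24 h and 72 h did not overlap, whereas those of DMSO and cisplatin at one time did. Within the ATF4 arm the 6 regulators had a median change of 1.38 in DMSO and 1.46 in cisplatin, the 6 enzymes 0.31 and 0.26 and the 4 transporters -0.15 and 0.0022.

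**Figure D3:**
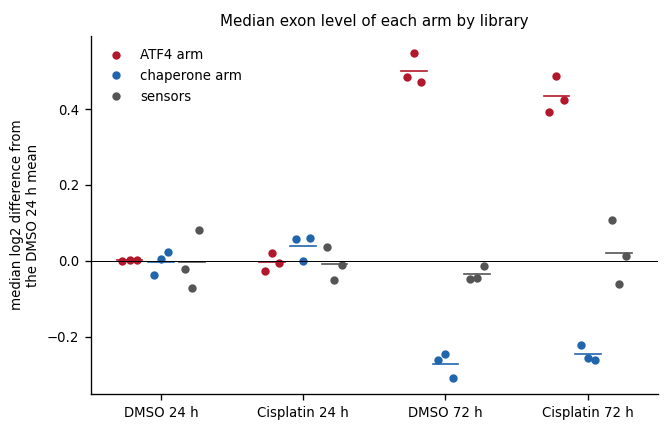
Median log2 exon level of the tested genes of each arm in each library, relative to the DMSO 24 h mean of each gene (y axis), for the 4 groups (x axis), with 1 point per library and a line at the mean of the group. In the 6 libraries of 72 h the ATF4 arm (19 genes) lies between 0.39 and 0.55 and the chaperone arm (14 genes) between -0.31 and -0.22.

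The changes over time in DMSO and in cisplatin come from different libraries and can be set side by side. Of the 37 genes, 34 had the same sign in both and 28 were called in the same direction in both (55.2% of all genes). The log2 changes had a Pearson correlation of 0.99 across genes (0.91 across all 10444 genes, of which 89.4% had the same sign). Genes are not independent replicates, and the points share the libraries of each comparison, so no p is given. The largest gap between the treatments was 0.24 on the log2 scale.

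No gene of the list passed the test for a difference between cisplatin and DMSO at the exon level, although the libraries of some genes did not overlap. By edgeR, 0 of 37 genes were called at 24 h (0% of all genes tested) and 0 of 37 at 72 h (0.0287% of all genes), with 2 and 4 genes at an unadjusted p under 0.05 (2.49 and 12.6% of all genes). DESeq2 called 0 of the 38 genes to which it gave an adjusted p at 24 h (0% of all genes) and 0 of 31 at 72 h (2.14%). At an unadjusted p under 0.05 it had 2 and 7 of 38 (1.97 and 9.83%). The interaction, the difference between the treatments in the change over time, was called for 0 of 37 by edgeR (0% of all genes), with 3 genes at an unadjusted p under 0.05 (9.43%). By DESeq2 it was called for 0 of 19 with an adjusted p (0.141%), with 5 of 38 at an unadjusted p under 0.05 (7.55%). The log2 difference between cisplatin and DMSO ranged from -0.15 to 0.17 at 24 h and from -0.26 to 0.17 at 72 h. Its 95% interval lay within 0.5 of 0 for 36 of 37 genes at each time, and within 1 of 0 for all 37, so a 2-fold effect on exon counts of any tested gene lies outside its interval, while changes of the size of the standard errors (median 0.057 at 24 h and 0.054 at 72 h) could not be resolved.

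**Figure D4:**
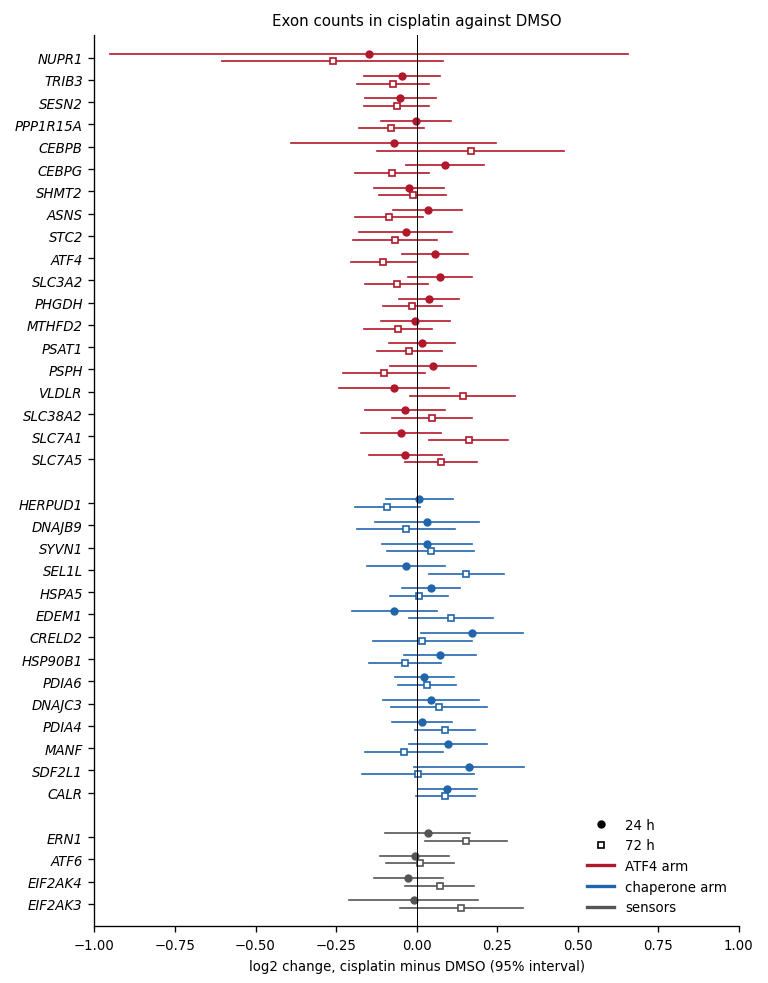
Log2 difference in exon counts between cisplatin and DMSO (x axis, with 95% intervals) for the 37 tested genes (y axis), with filled circles for 24 h and open squares for 72 h. The estimates lie between -0.26 and 0.17, and the widest interval is that of NUPR1 at 24 h, from -0.95 to 0.66.

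The smallest p-values at 24 h were in the chaperone arm. CRELD2 had 38.2, 34.3 and 33.4 CPM in DMSO 24 h and 41.05, 41.4 and 36.6 CPM in Cisplatin 24 h, which overlap, with a log2 difference of 0.17 ± 0.076 (edgeR adjusted p = 1). CALR, whose values are given above, was higher in each Cisplatin 24 h library than in each DMSO 24 h library, by 0.095 ± 0.044 (edgeR adjusted p = 1). All 8 chaperones and co-chaperones had estimates above 0 at 24 h, from 0.032 to 0.17, as did 5193 of the 10444 genes tested, and none passed. In the ATF4 arm the smallest were SLC3A2 at 0.074 ± 0.048 (edgeR adjusted p = 1) and CEBPG at 0.088 ± 0.059 (edgeR adjusted p = 1).

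At 72 h SLC7A1 had 291, 268 and 304 CPM in DMSO and 331, 300.2 and 334 CPM in cisplatin, a log2 difference of 0.16 ± 0.060 between groups that overlap (edgeR adjusted p = 0.278). ATF4 was at -0.10 ± 0.049 (edgeR adjusted p = 0.389), and its libraries overlapped as well. SEL1L had 113, 113 and 118 CPM in DMSO and 132, 122 and 130.04 CPM in cisplatin, without overlap, at 0.15 ± 0.057 (edgeR adjusted p = 0.273). CALR was at 0.090 ± 0.044 (edgeR adjusted p = 0.409). The Cisplatin 72 h libraries of ASNS, HERPUD1, SESN2, PPP1R15A, CEBPG and NUPR1 lay below those of DMSO 72 h without overlap. Those of SLC7A5 and VLDLR, like SEL1L, lay above them without overlap. None of these differences passed the test. Of the other genes that results turn on, TRIB3 differed by -0.045 ± 0.057 at 24 h and -0.072 ± 0.054 at 72 h, ASNS by 0.035 ± 0.052 and -0.085 ± 0.051, HSPA5 by 0.045 ± 0.044 and 0.0079 ± 0.044 and HERPUD1 by 0.0083 ± 0.051 and -0.091 ± 0.049. The median difference was -0.023 in the ATF4 arm and 0.038 in the chaperone arm at 24 h, and -0.062 and 0.025 at 72 h, beside a median over all genes of -0.00047 at 24 h and 0.00052 at 72 h. The ATF4-arm median at 24 h changed sign, to as much as 0.018, when DMSO 24 h replicate 3, Cisplatin 24 h replicate 1 or Cisplatin 24 h replicate 2 was left out.

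Intron counts, which the study used as a measure of unspliced RNA, rose over time for many of the ATF4-arm genes, on far fewer fragments than the exon counts. In DMSO, 10 of 20 ATF4-arm genes were higher at 72 h and 2 lower by edgeR, against 2 lower of 12 chaperone-arm genes and 1 lower of 4 sensors, where 17.2% of all genes were higher and 16.2% lower. In cisplatin, 10 ATF4-arm genes were higher, 5 chaperone-arm genes were lower and 1 sensor was lower, beside 16.4% higher and 15.4% lower over all genes.

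DDIT3 (chr12:57516588-57521737), which encodes CHOP, the factor that links the response to cell death, could be read only from its intron entry. It had 29.1, 22.9 and 17.7 intron CPM in DMSO 24 h and 177, 189 and 165 in DMSO 72 h. In cisplatin it had 29.8, 40.9 and 39.7 intron CPM at 24 h and 134, 148 and 116 at 72 h. Every 72 h library exceeded every 24 h library, with a log2 rise of 2.90 ± 0.16 in DMSO (edgeR adjusted p = 1.75e-21) and 1.85 ± 0.15 in cisplatin (edgeR adjusted p = 4.98e-15). Cisplatin libraries lay above DMSO libraries at 24 h, by 0.64 ± 0.19 (edgeR adjusted p = 0.741), and below them at 72 h, at log2 -0.40 ± 0.13 (edgeR adjusted p = 0.567), in both cases without overlap and without passing the test. The interaction was -1.05 ± 0.23 with an edgeR adjusted p of 0.0584. Over 18 alternatives the interaction ranged from -1.24 to -0.91 with adjusted p from 0.0102 to 0.351, and it passed in 3, namely with no filter on low counts, without DMSO 24 h replicate 1 (adjusted p = 0.0311) and without Cisplatin 24 h replicate 1 (adjusted p = 0.0282). DDIT3 overlaps MARS1 and MBD6 on the opposite strand and MIR616 and an unnamed gene on its own strand. The part of those genes in these counts was not tested.

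TRIB3 introns had 25.95, 21.9 and 23.4 CPM in DMSO 24 h and 154, 118 and 148 CPM in DMSO 72 h, a log2 rise of 2.56 ± 0.16, and rose by 3.01 ± 0.17 in cisplatin (edgeR adjusted p = 2.18e-19 and 1.26e-21). SESN2 introns rose by 2.30 ± 0.16 and 2.31 ± 0.16 and those of PPP1R15A by 1.68 ± 0.35 and 1.65 ± 0.33. For these 3 genes no change of the exon to intron ratio over time passed the edgeR test. The TRIB3 ratio in cisplatin came nearest, at log2 -0.43 ± 0.18 (edgeR adjusted p = 0.114). The study's logistic regression, which leaves out the spread between replicates, called it lower. ASNS had 263, 279 and 260.03 intron CPM in DMSO 24 h and 587, 603 and 538 in DMSO 72 h, a rise of 1.10 ± 0.095, and 0.98 ± 0.094 in cisplatin (edgeR adjusted p = 2.76e-14 and 1.51e-12). SHMT2 introns rose by 0.95 ± 0.11 and 0.78 ± 0.11, SLC3A2 introns by 0.59 ± 0.084 and 0.56 ± 0.084, MTHFD2 introns by 0.35 ± 0.10 and 0.29 ± 0.099 and the intron entry of CHAC1 by 0.55 ± 0.12 and 0.50 ± 0.11. CEBPG introns rose in DMSO by 1.14 ± 0.27 and did not pass in cisplatin at 0.54 ± 0.25, whereas PSAT1 introns were at 0.0063 ± 0.13 in DMSO, not called, and rose in cisplatin by 0.51 ± 0.13. Neither difference between treatments was called (edgeR adjusted p of the interaction = 0.916 and 0.735). ATF4, with only 16 to 54 intron counts per library, was at -0.72 ± 0.34 and -0.47 ± 0.31, not called.

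In the chaperone arm CALR introns fell from 77.3, 78.4 and 81.5 CPM in DMSO 24 h to 28.8, 25.4 and 28.2 CPM in DMSO 72 h, a log2 change of -1.52 ± 0.18, and -1.23 ± 0.17 in cisplatin (edgeR adjusted p = 1.12e-09 and 6.62e-08). PDIA4 introns fell at log2 -0.61 ± 0.11 and -0.48 ± 0.11. MANF, PDIA6 and CRELD2 introns fell in cisplatin, at log2 -0.85 ± 0.23, -0.53 ± 0.16 and -0.46 ± 0.17, and were at -0.51 ± 0.25, -0.27 ± 0.17 and -0.14 ± 0.18 in DMSO, not called. HSPA5 introns were at -0.47 ± 0.29 in DMSO and -0.41 ± 0.27 in cisplatin and HERPUD1 introns at 0.13 ± 0.15 and 0.084 ± 0.15, none of them called. SLC7A1 and SLC38A2 introns fell in DMSO, at log2 -0.50 ± 0.17 and -0.23 ± 0.087, and were at -0.35 ± 0.16 and 0.055 ± 0.087 in cisplatin, not called. The SLC38A2 call was lost without DMSO 24 h replicate 3 or any one DMSO 72 h library, and the SLC7A1 call without DMSO 72 h replicate 1. EIF2AK4 introns fell at both treatments, at log2 -0.70 ± 0.11 and -0.65 ± 0.11, more than its exons did. The count of 5 genes lower in DMSO became 3 without DMSO 72 h replicate 1 and 8 when counts were scaled by library totals only, which added ATF4, PDIA6 and MANF.

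**Figure D5:**
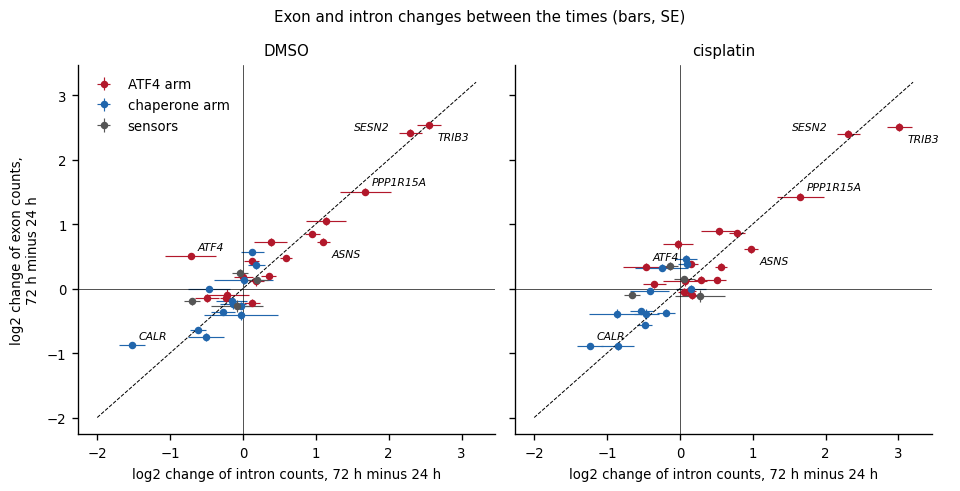
Log2 change of exon counts from 24 to 72 h (y axis) against that of intron counts (x axis) for the 33 genes tested in both, in DMSO (left) and cisplatin (right), with SE bars and a dashed line of equality. TRIB3, SESN2 and PPP1R15A lie near the line at the upper right, CALR at the lower left, and ATF4 left of the line with a wide intron error.

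Of the 33 genes tested in both kinds of count, 30 moved in the same direction in exons and introns in DMSO (73.5% of all genes did) and 23 in cisplatin (72.4%). Across these genes the correlation of the exon with the intron change was 0.92 at each treatment, beside 0.73 and 0.72 over all genes. Both kinds of count come from the same libraries, so the correlations are descriptions without a p.

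By edgeR, intron counts differed between cisplatin and DMSO for 0 of 36 genes at 24 h (0.0208% of all genes) and 0 at 72 h (0.0416%), and 0 in the interaction (0.0416%), with 4, 3 and 3 genes at an unadjusted p under 0.05 (5.00, 6.46 and 5.71% of all genes). DESeq2 called 0 of 39 genes with an adjusted p at 24 h (0%), 0 of 10 at 72 h (0.211%) and 0 of 39 in the interaction (0%). It also had 4, 3 and 3 at an unadjusted p under 0.05 (2.87, 3.59 and 3.10%). Beside DDIT3, the genes with the smallest p at 24 h were TRIB3, at -0.50 ± 0.21 (edgeR adjusted p = 0.942), DNAJC3 and PDIA6. Like those of DDIT3, the 24 h libraries of these genes did not overlap between the treatments. DNAJC3 had only 8, 6 and 7 intron counts in DMSO 24 h and 18, 32 and 11 in Cisplatin 24 h, and a log2 difference of 1.38 ± 0.45 (edgeR adjusted p = 0.741). PDIA6 differed by 0.31 ± 0.16 (edgeR adjusted p = 0.942). At 72 h SLC38A2 was at 0.19 ± 0.086 (edgeR adjusted p = 0.722), and in the chaperone arm PDIA4 had the smallest p at 0.16 ± 0.11 (edgeR adjusted p = 0.86), followed by DNAJC3 at 0.54 ± 0.44 (edgeR adjusted p = 0.89).

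The ratio of exon to intron counts, which falls when more intronic sequence is retained, passed the test for a difference between the treatments in none of the 34 genes tested, although the libraries of some, such as DNAJC3, SLC7A1 and STC2 at 24 h, did not overlap. By edgeR 0 were called at 24 h (0% of all genes), 0 at 72 h (0.0213%) and 0 in the interaction (0%), with 4, 2 and 1 at an unadjusted p under 0.05 (6.33, 6.24 and 4.55% of all genes). The median log2 ratio over all genes was itself -0.086 at 24 h and -0.084 at 72 h in cisplatin against DMSO, and the ATF4-arm median was -0.11 and -0.17 and the chaperone-arm median -0.14 and -0.093. The smallest p at 24 h were DNAJC3 at -1.44 ± 0.38 and PDIA6 at -0.38 ± 0.16 in the chaperone arm and STC2 at -0.63 ± 0.24 and SLC7A5 at -0.29 ± 0.12 in the ATF4 arm, with edgeR adjusted p of 0.612, 0.761, 0.761 and 0.767. At 72 h they were PSAT1 at -0.34 ± 0.15, SLC38A2 at -0.23 ± 0.097, HERPUD1 at -0.29 ± 0.15 and DNAJC3 at -0.56 ± 0.38, with edgeR adjusted p of 0.75, 0.757, 0.802 and 0.814.

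The logistic regression of the study, which treats each fragment as an independent draw, called 6 of 35 genes at 24 h (11.5% of all genes) and 6 of 36 at 72 h (11.4%), all with a lower ratio in cisplatin. These were PHGDH, SHMT2, SLC7A5, STC2, DNAJC3 and PDIA6 at 24 h and PSAT1, PHGDH, SLC7A5, SLC38A2, SESN2 and HERPUD1 at 72 h. Replicates spread more than that model allows, with a median dispersion of 2.39 times the binomial at 24 h and 3.44 times at 72 h for these genes. With that spread in the model the quasi-binomial form of the regression called 0 at each time (0% of all genes), with 3 and 1 genes at an unadjusted p under 0.05 (5.48 and 6.82%). The count at 24 h was 3 without Cisplatin 24 h replicate 2 and 10 without Cisplatin 24 h replicate 3, and that at 72 h was 3 without DMSO 72 h replicate 1 or Cisplatin 72 h replicate 3.

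Over time the ratio rose by edgeR in 5 genes in DMSO (8.09% of all genes rose and 3.37% fell) and in 5 in cisplatin (8.36% and 3.56%), and no other gene of the 34 passed. All genes shifted by a median of 0.0998 and 0.11, and changes are read relative to that. EIF2AK4 had exon to intron ratios of 17.5, 16.3 and 20.4 in DMSO 24 h and 23.9, 27.1 and 28.96 in DMSO 72 h, a log2 change of 0.57 ± 0.12, and changed by 0.62 ± 0.12 in cisplatin (edgeR adjusted p = 0.00209 and 0.000926). It kept its call when any library was left out. ATF4 was called at both treatments too, at 1.29 ± 0.31 and 0.93 ± 0.27, on few intron counts. PHGDH, CALR and HERPUD1 in DMSO (log2 0.38 ± 0.12, 0.71 ± 0.19 and 0.50 ± 0.17) and SLC7A1, STC2 and ERN1 in cisplatin (0.47 ± 0.15, 0.81 ± 0.21 and 0.55 ± 0.13) made up the rest. Single libraries decided these counts. In DMSO 1 gene was called without DMSO 24 h replicate 3, 2 without DMSO 72 h replicate 3, and 3 without DMSO 24 h replicate 1, DMSO 72 h replicate 1, DMSO 72 h replicate 2 or Cisplatin 72 h replicate 1. Without DMSO 72 h replicate 2 these were 2 of the original 5 genes and SLC7A1, which was not among the 5. HERPUD1 and PHGDH were lost in each of these fits, ATF4 without DMSO 24 h replicate 3 or DMSO 72 h replicate 3, and CALR without DMSO 24 h replicate 3 or DMSO 72 h replicate 2. PHGDH was also lost without DMSO 24 h replicate 2, Cisplatin 24 h replicate 1, Cisplatin 72 h replicate 2 or Cisplatin 72 h replicate 3. Under the replicate block HERPUD1 and PHGDH were both lost in DMSO. In cisplatin 2 genes were called without Cisplatin 72 h replicate 2 and 3 without Cisplatin 24 h replicate 1, Cisplatin 24 h replicate 2 or Cisplatin 72 h replicate 1. ATF4 lost its cisplatin call without Cisplatin 24 h replicate 2, Cisplatin 72 h replicate 1 or Cisplatin 72 h replicate 2, and STC2 without Cisplatin 24 h replicate 1 or Cisplatin 72 h replicate 2. SLC7A1 lost its cisplatin call when any one cisplatin library was left out and under the replicate block. By the logistic regression the ratio changed over time in 14 of 36 genes in DMSO (33.7% of all genes) and 19 of 35 in cisplatin (40.6%), and with the spread between replicates in the model in 0 and 1 (0.657 and 0.988%).

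Other genes of the same pathways, listed apart from the 42, held ATF4 targets that were mostly higher at 72 h and ER genes called in both directions. Over all genes tested, 32.6% were higher and 32.5% lower in DMSO, and 32.0% higher and 31.5% lower in cisplatin. Of 17 further ATF4 targets tested, 13 were higher and 2 lower at 72 h in DMSO by edgeR, and 14 were higher and 2 lower in cisplatin, with median log2 changes of 0.61 and 0.63. The largest were GDF15, a secreted stress cytokine, at 2.61 ± 0.084 and 2.33 ± 0.083, KLHL24, a ubiquitin ligase adaptor, at 1.63 ± 0.088 and 1.75 ± 0.088, DDIT4, an inhibitor of mTORC1, at 1.46 ± 0.056 and 1.34 ± 0.056, and SLC6A9, a glycine transporter, at 1.27 ± 0.14 and 1.23 ± 0.13. Of 12 genes of eIF2 and its regulators, 2 were higher and 6 lower at each treatment. EIF2AK2, the double-stranded RNA sensor PKR, rose by 0.85 ± 0.073 and 1.05 ± 0.073, while GCN1, the activator of GCN2, PPP1R15B, the constitutive phosphatase subunit, and EIF2S1, which encodes the phosphorylated subunit of eIF2, changed by -0.70 ± 0.064, -0.56 ± 0.064 and -0.55 ± 0.061 in DMSO and by -0.44 ± 0.064, -0.42 ± 0.063 and -0.57 ± 0.061 in cisplatin. Of 26 further ER folding and disposal genes, 7 were higher and 8 lower in DMSO and 7 higher and 10 lower in cisplatin, with medians of -0.055 and -0.053. TXNDC5, a disulfide isomerase, and SSR1, a subunit of the translocon-associated complex, fell at log2 -0.70 ± 0.055 and -0.56 ± 0.062 in DMSO, and CRELD1 and EDEM2, relatives of CRELD2 and EDEM1, rose by 0.75 ± 0.11 and 0.58 ± 0.052.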

How the data were processed

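Poly(A) RNA of 12 TYK-nu libraries in 4 groups of 3 was sequenced by the authors on a single lane. Per the labels and the study's methods, reads were checked with FastQC (0.11.8), trimmed with Trim Galore (0.6.0), aligned to GRCh38 with HISAT2 (2.1.0) and counted with HTSeq over exons (intersection-strict) and over introns (union). The deposited values are these raw counts per gene, 1 exon and 1 intron column per library, and they were not normalized or filtered by the authors. The strand option of the counting is not given in the sources used here.

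Samples were grouped by the treatment and duration in the labels. The list of 42 genes, the other gene lists and the motifs were chosen with earlier results of these data known, so counts over them are descriptions. Genes were fitted over the whole table with edgeR (4.0.16, R 4.3.3), using filterByExpr, TMM scaling, 1 coefficient per group over the 12 libraries and the quasi-likelihood test, separately for exon and intron counts, and p-values were adjusted (Benjamini-Hochberg) over all genes tested, 0.05 being the threshold. The exon to intron ratio was tested in edgeR as the interaction of group and kind of count with 1 term per library, where 3 or more libraries had 10 exon and 10 intron counts. The study's logistic regression was run beside it. CPM values use the scaled library sizes, and log CPM a prior count of 2. The medians of a list have an SD over the 3 libraries of the first group named. Exon totals of 17341818 to 63913081 and intron totals of 1185012 to 4840181 set the precision, and intervals and SEs reflect the spread between libraries.

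Genes given full statistics were, in each comparison, up to 10 called genes with the largest change and no overlap between groups, then ATF4, DDIT3, ASNS, TRIB3, HSPA5 and HERPUD1, and, where no gene was called, the 2 genes of each arm with the smallest p. Genes of the other lists were named only where they were called, at most 4 in a comparison. Other gene values were added by role. The marker lists were checked as sums of CPM. The ranges over all 12 libraries of the serous list (7 of 9 genes in the table) were 168 to 199 CPM, of the leukocyte list (4 of 5) 0.341 to 1.01, of the endothelial list (3 of 3) 2033 to 3479 and of the fibroblast list (3 of 4) 0 to 0.216. KRT18, at 133 to 181 CPM, made up most of the serous sum, which therefore does not stand for the other genes of that list. Gene positions came from GENCODE 44 and promoters from RefSeq on GRCh38.p14. Alternatives were RLE size factors, library totals only, no filter, DESeq2 (1.42.0), a replicate block, only the libraries compared, exon library sizes for introns, other minimum counts for the ratio, a quasi-binomial dispersion and leaving out each library. The code was tested on simulated data before use.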

Additional observations from a re-analysis of the deposited data

How the results depend on the processing

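Exon calls over time held under every alternative to within 1.5 times their counts. In DMSO all 34 calls were kept with RLE size factors, DESeq2, the replicate block and only the 6 libraries compared, 32 with library totals only (SLC38A2 and SLC7A1 lost) and 32 with no filter on low counts (SEL1L and ATF6 lost), and in cisplatin all 28 were kept under each of these. The 45 log2 changes of exon counts given with full statistics for single genes kept their side of the threshold in all 360 alternative values. The called changes also kept their direction, which was not required of uncalled ones such as that of HSPA5 near 0. Neither result extends to the intron and ratio calls. Scaling by library totals only raised the number of intron entries lower in DMSO from 5 to 8, and moved the chaperone-arm median for cisplatin at 72 h from 0.025 to 0.0422. The intron interaction had 1 call with no filter on low counts (DDIT3), against 0. The quasi-binomial dispersion lowered the logistic calls to 0 and 0 for cisplatin and to 0 in DMSO and 1 in cisplatin over time. The cause was not tested where a count moved.

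Leaving out 1 library at a time gave ranges of 3 to 6 for intron entries lower in DMSO, 0 to 1 for the intron interaction, 1 to 5 and 0 to 1 for ratios higher and lower in DMSO, 2 to 7 and 0 to 2 for ratios higher and lower in cisplatin, 3 to 10 and 3 to 9 for the logistic calls of cisplatin at 24 and 72 h, -0.023 to 0.018 for the ATF4-arm median at 24 h and 0.015 to 0.038 for the chaperone-arm median at 72 h. The ratios lower over time were ASNS in DMSO (without Cisplatin 24 h replicate 2 or 3) and ASNS and PSAT1 in cisplatin (without Cisplatin 24 h replicate 2, and ASNS alone without DMSO 24 h replicate 3). The 7 ratios higher in cisplatin came without Cisplatin 24 h replicate 3.

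Replicate numbers recur across groups, but nothing says what a shared number stands for, and same-numbered libraries deviated together only weakly (correlations of -0.108 to 0.102 over genes), so the numbers were not taken as pairs. With the replicate block the exon counts stayed at 20 higher and 14 lower in DMSO and 20 higher and 8 lower in cisplatin, the calls for cisplatin stayed at 0, and the ratios higher in DMSO went from 5 to 3 (HERPUD1 and PHGDH lost) and those higher in cisplatin from 5 to 4 (SLC7A1 lost). Over all genes, the exon calls for cisplatin at 72 h were 3 in the fit reported, 154 with no filter on low counts and 96 by DESeq2, and no gene of the list was among them in either.

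Depth limits the intron counts most, since intron totals were 6.26 to 7.17% of all counts and ATF4, DNAJC3 and NUPR1 had few intron fragments, and DDIT3, CHAC1 and ATF3 had no usable exon count. Protein, translation, XBP1 splicing and phosphorylation of eIF2 were not measured, and 1 cell line at 2 times cannot separate time from culture conditions.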
